A study of Mus musculus with 36 samples.

Results

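Expression of 5 genes tied to the glucocorticoid response was read in bone marrow-derived macrophages (BMDMs). They are Nr3c1, which encodes the glucocorticoid receptor, and 4 genes known to be induced by it, Fkbp5, Tsc22d3, Klf9 and Sgk1. The members are the 5 rows of the deposited count table, of 54532 gene rows in all, whose symbol is one of these names. They were followed through all 36 libraries. Tsc22d3 was selected on its measured expression difference between the genotypes, so its genotype values are given as a description with no test. The rule uses no measured value for the other 4, but the members were chosen with earlier results of these data known.

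Glucocorticoids are steroid hormones that enter the cell and bind the receptor, which waits in the cytoplasm in a complex with HSP90, its cochaperones and immunophilins. The bound receptor moves to the nucleus, binds palindromic DNA elements as a dimer to raise the transcription of target genes, and restrains inflammatory transcription factors such as NF-kB and AP-1. In macrophages this is the route by which steroid drugs dampen the response to bacterial products, and the level of the hormone in the body follows the circadian clock. Fkbp5 encodes an immunophilin (FKBP51) that lowers the receptor's affinity for hormone and closes a negative feedback loop. Tsc22d3 encodes GILZ, a leucine zipper protein that binds and inhibits NF-kB and AP-1. Klf9 encodes a zinc finger transcription factor, and Sgk1 a serine/threonine kinase of ion transport and cell survival.

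The cells came from female C57BL/6 adult mice matched for age. They were grown from marrow for 7 days with MCSF (macrophage colony-stimulating factor) in medium with serum. KO cells came from mice with floxed Bmal1 alleles and Cre recombinase under the myeloid LysM promoter (6 replicates), and WT cells from flox/flox littermates without Cre (3 replicates), so that all animals carried the floxed alleles. Both genotypes were treated for 6 h with DMSO as vehicle, with 100 µM CCM (Core Circadian Modulator, a small molecule that binds the PASB domain of BMAL1), with 100 nM LPS (lipopolysaccharide, the bacterial endotoxin sensed by Toll-like receptor signaling) or with LPS and CCM together, which gave 8 groups of 3 (WT) or 6 (KO) libraries. No group received a glucocorticoid. Whether a replicate number stands for 1 animal is not stated, and p-values measure the spread between these libraries.

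Totals ranged from 13469262 to 28288923 read pairs on genes per library. The Bmal1 gene, listed as Arntl, had 7.52 to 12.9 CPM (the count scaled to a common library total by the TMM method) in the WT libraries and 2.02 to 10.8 in the KO libraries, and the ranges overlap. The 7 macrophage markers examined were each above 1 CPM in all groups, and their summed level was 11230 to 19980 CPM without KO replicate 6. The 4 libraries of KO replicate 6, 1 per treatment, stood apart. They held less RNA of long genes. The median log2 deviation from the group in the top quartile of gene length, minus that in the bottom quartile, was -1.72 to -1.23 in these libraries. It was -0.888 in KO LPS+CCM replicate 5 and between -0.348 and 0.434 in the other 31 libraries. In KO replicate 6 the summed macrophage markers were 11180 to 13310 CPM, the neutrophil markers 1030 to 1106 CPM against 380 to 999 elsewhere, and the B cell markers 4.94 to 9.99 CPM against 1.33 to 5.16. The changes of the members with LPS and with CCM in KO are therefore given with and without this replicate. Some other KO results are given only with it. In bulk RNA, fewer cells of a type and less RNA per cell cannot be told apart.

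The members differed widely in abundance. Per kilobase of gene length, Sgk1 had the highest level in WT vehicle cells, 105 ± 11.7 CPM per kb (SD, n = 3), followed by Nr3c1 at 11.7 ± 0.498 and Klf9 at 8.08 ± 1.82. Tsc22d3 was at 4.82 ± 0.434 and Fkbp5 at 1.97 ± 0.0545 CPM per kb. The library ranges of neighbours in this order did not overlap. Under LPS the order in WT changed at its lower end. Sgk1 was at 90.7 ± 10.9, Nr3c1 at 29.5 ± 0.219, Klf9 at 5.28 ± 0.708, Fkbp5 at 1.54 ± 0.187 and Tsc22d3 at 0.844 ± 0.0538 CPM per kb, again with no overlap between neighbours. All 5 members passed the filter on low counts in every comparison. Their counts in single libraries went from 10 (Klf9 in KO replicate 6) to 21954 (Sgk1).

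**Figure D1:**
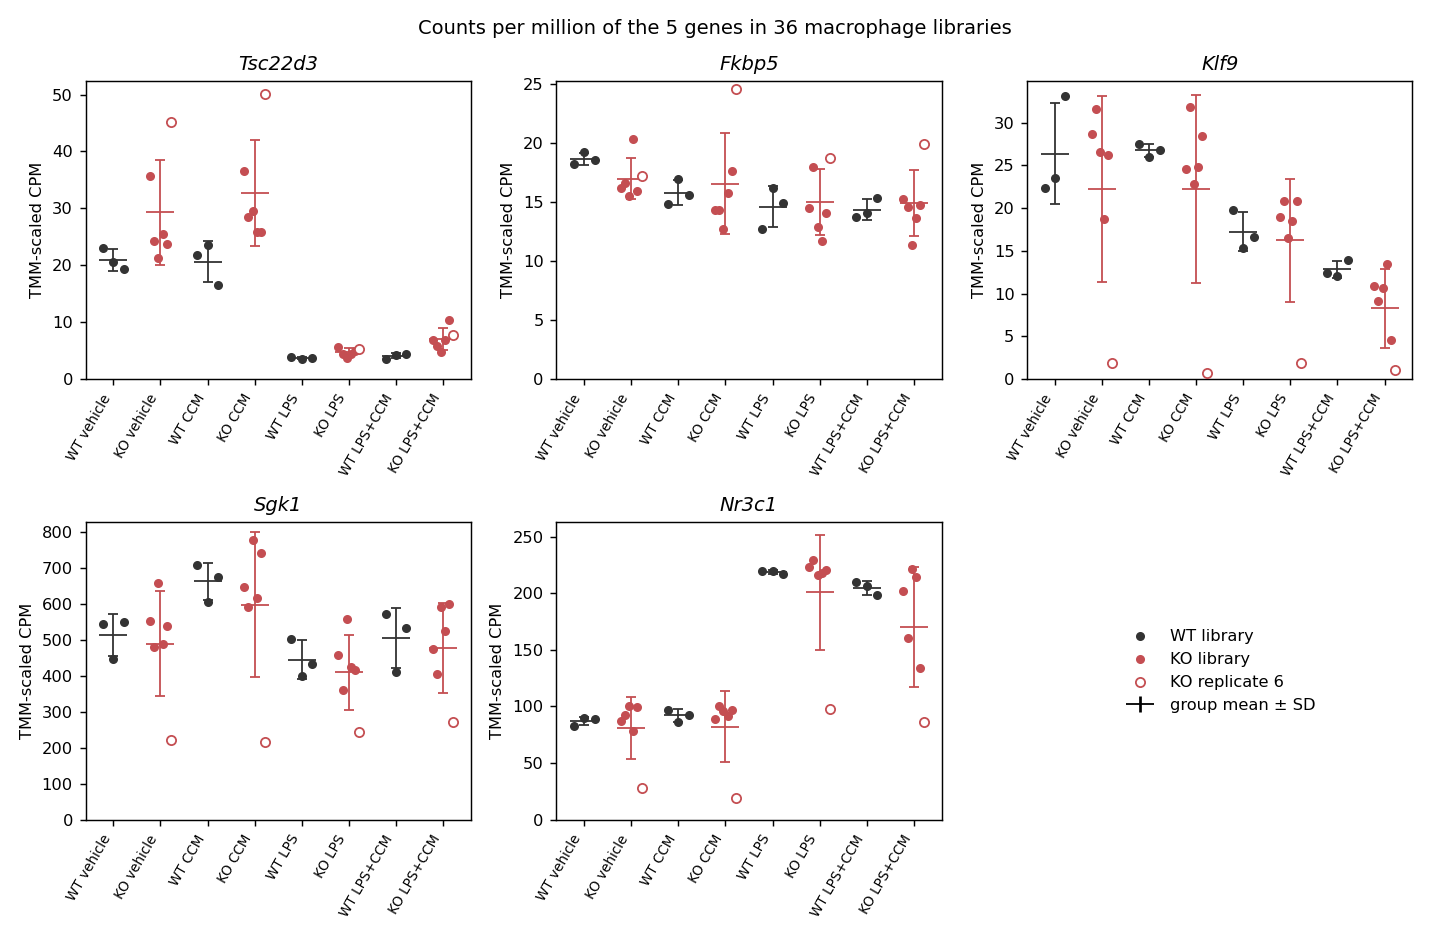
Library levels of the 5 genes. Each panel plots TMM-scaled CPM on a linear axis from 0 for the 8 groups, with 1 point per library, open circles for KO replicate 6, and bars for the group mean ± SD (n = 3 WT, n = 6 KO). Tsc22d3 lies at 3.43 to 10.4 CPM in the groups with LPS and at 16.6 to 50.1 CPM in those without, Nr3c1 moves the other way, and KO replicate 6 is the lowest of its group for Klf9, Sgk1 and Nr3c1.

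The DNA before the start of 3 members is shown because it holds the letters to which the glucocorticoid receptor or the BMAL1-CLOCK dimer are known to bind. RefSeq (GRCm38.p6, the assembly of the mm10 build that the files use) gave 11 start sites for 4 of the members, 6 of them for Sgk1 and 3 for Tsc22d3, and the 250 bases before each were searched on both strands. A palindrome of AGAACA and TGTTCT with 3 bases between them was found before 1 of the 11 starts, and before 3 of all 32851 starts of the table (0.00913%). A half-site, AGAACA on either strand and those of the palindrome included, was found before 4 of the 11 (16.1% of all starts), and the E-box CACGTG, the BMAL1-CLOCK motif, before 2 of the 11 (6.02% of all starts). Capitals mark these matches in the upstream strands below, each 5′ to 3′ and ending at the base before the start. Sgk1, chr10:21993640-21993889 (+), holds the palindrome from base -189, and near its far end an E-box that overlaps a further half-site. Fkbp5, chr17:28486150-28486399 (-), holds an E-box from base -169. Tsc22d3, chrX:140600523-140600772 (-), holds a half-site from base -185.
Sgk1: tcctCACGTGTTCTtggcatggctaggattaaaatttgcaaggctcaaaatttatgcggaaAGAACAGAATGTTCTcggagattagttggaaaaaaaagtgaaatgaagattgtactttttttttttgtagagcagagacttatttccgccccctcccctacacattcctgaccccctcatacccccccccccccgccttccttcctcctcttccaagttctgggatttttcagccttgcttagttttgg
Fkbp5: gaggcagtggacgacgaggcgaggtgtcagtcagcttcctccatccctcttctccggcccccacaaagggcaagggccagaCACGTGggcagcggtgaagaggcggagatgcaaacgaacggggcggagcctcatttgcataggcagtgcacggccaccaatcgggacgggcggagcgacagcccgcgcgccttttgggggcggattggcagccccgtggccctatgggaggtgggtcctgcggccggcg
Tsc22d3: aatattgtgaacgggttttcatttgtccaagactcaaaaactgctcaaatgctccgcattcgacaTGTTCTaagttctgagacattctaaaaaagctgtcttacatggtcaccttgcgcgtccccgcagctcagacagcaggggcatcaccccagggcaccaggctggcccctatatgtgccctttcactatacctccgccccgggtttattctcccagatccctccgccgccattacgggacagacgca
The Klf9 window held none of the 3 motifs. Gene counts do not show which of several starts was used.

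The first question was how LPS changed these genes, which gives the inflammatory background on which CCM was tested. In WT macrophages LPS raised the receptor gene Nr3c1 2.56-fold and lowered its target Tsc22d3 5.6-fold, and it lowered Klf9 and Fkbp5 by less. Sgk1 did not pass the test. Of the 5 members, 4 were called at an adjusted p of at most 0.05 (edgeR's quasi-likelihood test, Benjamini-Hochberg over 14501 genes), beside 63% of all genes tested. Of these 4, 3 were lower, beside 32.4% of all genes, and 1 was higher, beside 30.6%. The 2 groups did not overlap for these 4 genes, as was so for 69% of all genes.

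Nr3c1 (ENSMUSG00000024431, receptor) stood at 82.8, 89.8 and 88.6 CPM in WT vehicle replicates 1 to 3 and at 220, 219 and 217 CPM with LPS. Every LPS library lay above every vehicle library. The log2 fold change was 1.36 ± 0.06 (SE, adjusted p = 2.13e-08). It is a gene on the minus strand of chromosome 18 (39410545 to 39491301, mm10).

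Tsc22d3 (ENSMUSG00000031431, chrX:140539528-140600659, minus strand) moved most of the 5. It stood at 23.0, 20.5 and 19.3 CPM in WT vehicle libraries and at 3.90, 3.43 and 3.66 CPM with LPS. The groups were far apart, with a log2 fold change of -2.49 ± 0.12 (adjusted p = 3.72e-08).

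Klf9 (ENSMUSG00000033863, chr19:23141226-23166911, plus strand) fell from 22.4, 23.5 and 33.2 CPM to 19.8, 15.3 and 16.6 CPM, without overlap. Its log2 fold change was -0.60 ± 0.16 (adjusted p = 0.00839). Vehicle replicate 3 was the highest library, and without it the change was -0.38 and still called (adjusted p = 0.0159). The short Mir1192 gene lies inside Klf9 and had at most 3 counts in a library.

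Fkbp5 (ENSMUSG00000024222, chr17:28399094-28517527, minus strand) fell from 18.2, 19.2 and 18.6 CPM to 12.7, 16.2 and 14.9 CPM. The groups did not overlap, but the change was small, -0.32 ± 0.10 (adjusted p = 0.0215). The call was lost with DESeq2 (adjusted p = 0.0534), without WT LPS replicate 1 (0.0718), without WT LPS replicate 3 (0.0515) and without WT vehicle replicate 2 (0.0822). Of the annotated small RNAs and short transcripts, 4 overlap Fkbp5, with at most 5 counts in a library.

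Sgk1 (ENSMUSG00000019970, chr10:21882184-21999903, plus strand) was at 543, 447 and 549 CPM in vehicle and at 503, 398 and 433 CPM with LPS. Each LPS library was lower than the vehicle library of its number. This is a description, since same-numbered libraries did not all deviate together here (lowest correlation 0.0469). The groups overlap, and the change of -0.18 ± 0.10 did not pass (adjusted p = 0.149). It passed without WT LPS replicate 1 (-0.27, adjusted p = 0.038) and with no filter on low counts (-0.22, adjusted p = 0.0156).

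Scaling matters for the small changes. With total counts in place of TMM the median log2 change of all genes moved from -0.05 to -0.47, Sgk1 was then called at -0.59 (adjusted p = 0.000325), and Fkbp5, Klf9, Tsc22d3 and Nr3c1 were at -0.73, -1.01, -2.90 and 0.94. Fkbp5, Klf9, Tsc22d3 and Nr3c1 lay further from that median than Sgk1 under both scalings.

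In KO macrophages Tsc22d3 fell 6.23-fold and Nr3c1 rose 2.48-fold with LPS. These 2 of the 5 members were called, beside 47.1% of 13648 genes (24.7% lower and 22.4% higher). Tsc22d3 ran from 21.3 (lowest) over 24.9 (median) to 45.2 CPM (highest) in vehicle and from 3.7 over 4.63 to 5.63 CPM with LPS, and the groups did not overlap, as was so for 30.6% of genes (log2 fold change -2.64 ± 0.22, adjusted p = 4.21e-07). Nr3c1 ran from 28 over 89.8 to 100 CPM and from 97.7 over 219 to 229 CPM. The lowest value of each group was KO replicate 6, which makes the groups overlap, although Nr3c1 was higher with LPS in 6 of 6 same-numbered pairs (1.31 ± 0.27, adjusted p = 0.00121).

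The other 3 members were not called in KO when all 6 replicates entered. Klf9 went from a median of 26.4 to 18.7 CPM (-0.46 ± 0.55, adjusted p = 0.537), Sgk1 from 512 to 420 CPM (-0.26 ± 0.23, adjusted p = 0.396) and Fkbp5 from 16.4 to 14.3 CPM (-0.17 ± 0.14, adjusted p = 0.354). Without KO replicate 6 all 5 members were called, beside 69.4% of genes. Klf9 was then at -0.47 ± 0.13 (adjusted p = 0.00519), Sgk1 at -0.30 ± 0.12 (0.0367), Fkbp5 at -0.25 ± 0.11 (0.0489), Tsc22d3 at -2.51 ± 0.15 and Nr3c1 at 1.27 ± 0.07. Same-numbered libraries deviated together here, and a fit with the replicate block called 4 of the 5, beside 71.6% of genes, among them Klf9 (-0.43, adjusted p = 0.00217) and Sgk1 (-0.23, adjusted p = 0.0108). Fkbp5 was also called with total counts in place of TMM (-0.57, adjusted p = 0.00163).

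**Figure D2:**
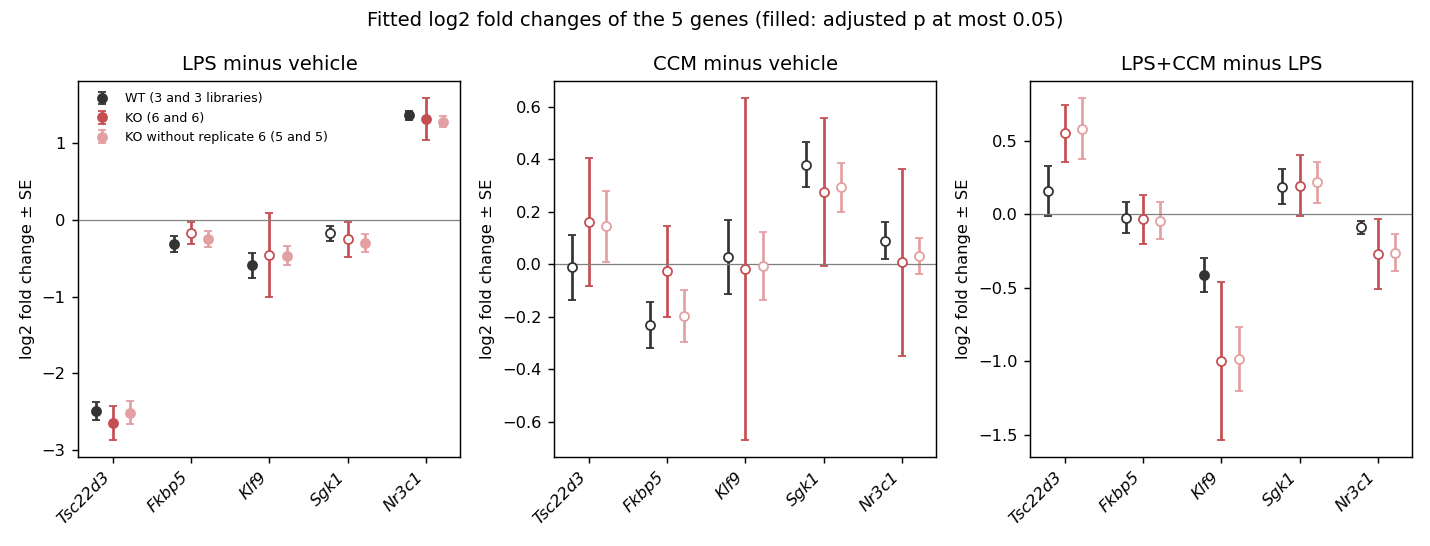
Fitted changes of the 5 genes. The vertical axis gives the log2 fold change ± SE for LPS against vehicle, CCM against vehicle and LPS+CCM against LPS, in WT, in KO and in KO without replicate 6, and filled circles mark an adjusted p of at most 0.05. LPS gave Tsc22d3 values of -2.49 and -2.64 in WT and KO, Nr3c1 values of 1.36 and 1.31, and the SE of Klf9 in KO shrank from 0.55 to 0.13 without replicate 6.

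The LPS response was not shown to differ between the genotypes. In the genotype by LPS interaction 0 of the 4 members tested and 0% of 15093 genes were called with edgeR, with 112 genes and 0 of these members at an unadjusted p under 0.05. The interaction was -0.02 ± 0.40 on the log2 scale for Nr3c1, 0.17 ± 0.21 for Fkbp5, 0.14 ± 0.81 for Klf9 and -0.06 ± 0.35 for Sgk1 (adjusted p = 1 for each). DESeq2 called none of the 4 either. The values without KO replicate 6 were -0.08 ± 0.10, 0.07 ± 0.17, 0.14 ± 0.22 and -0.11 ± 0.18, and none was called. For Tsc22d3 it was -0.13 ± 0.32, given without a test.

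Next, CCM was compared with vehicle in unstimulated cells, which asks what the BMAL1 ligand does to these genes at rest. Sgk1 was higher and Fkbp5 lower in WT cells with CCM, but no member passed the test. None of the 5 was called with edgeR, beside 0.057% of 14024 genes, while 2 of the 5 had an unadjusted p under 0.05, as did 1404 of all genes, and DESeq2 called 1 of the 5 and 241 of all genes. These 2, Sgk1 and Fkbp5, were also the members whose groups did not overlap, as was so for 15.4% of all genes.

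Sgk1 stood at 708, 605 and 673 CPM in WT CCM replicates 1 to 3, against 543, 447 and 549 CPM in vehicle. Every CCM library was above every vehicle library, and the log2 fold change was 0.38 ± 0.09 (adjusted p = 0.163). DESeq2 called it (0.38, adjusted p = 0.000865), as did the fit with no filter on low counts (adjusted p = 0.000387). Over the alternatives tried the change ran from 0.30 to 0.44.

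Fkbp5 stood at 14.8, 16.9 and 15.5 CPM with CCM, all below the vehicle libraries. Its log2 fold change was -0.23 ± 0.09 (adjusted p = 0.439). The receptor gene was at 97.3, 85.9 and 92.8 CPM (0.09 ± 0.07, adjusted p = 0.705), Tsc22d3 at 21.7, 23.6 and 16.6 CPM (-0.01 ± 0.12, adjusted p = 0.985) and Klf9 at 27.5, 26 and 26.8 CPM (0.03 ± 0.14, adjusted p = 0.961). These 3 genes overlapped between the groups.

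In KO cells CCM gave no called member either, with 0 of 5 called by edgeR, 0 by DESeq2 and 0 at an unadjusted p under 0.05, beside 0% of 13799 genes. Sgk1 ran from 215 over 632 to 777 CPM with CCM and from 220 over 512 to 657 CPM in vehicle, and was higher with CCM in 5 of 6 same-numbered pairs, the exception being KO replicate 6 (0.28 ± 0.28, adjusted p = 1). Without that replicate the change was 0.29 ± 0.09 (adjusted p = 0.194, with 1.01% of genes called). Same-numbered libraries deviated together here, and with the replicate block Sgk1 was called (0.25 ± 0.05, adjusted p = 0.0261), beside 3.11% of genes, and also with the block and without KO replicate 6 (0.30 ± 0.04, adjusted p = 0.00151).

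Tsc22d3 was higher with CCM in 6 of 6 KO pairs, by little. It ran from 25.9 over 29.0 to 50.1 CPM with CCM (0.16 ± 0.24, adjusted p = 1, and 0.17 ± 0.06, adjusted p = 0.18, with the block). Fkbp5 (-0.03 ± 0.17), Klf9 (-0.02 ± 0.65) and Nr3c1 (0.01 ± 0.36) were not called. With KO replicate 6 left out Tsc22d3 was at 0.14 ± 0.14, Fkbp5 at -0.20 ± 0.10, Klf9 at -0.01 ± 0.13 and Nr3c1 at 0.03 ± 0.07, and none was called. In KO replicate 6 alone the log2 difference with CCM was 0.51 for Fkbp5, -1.30 for Klf9 and -0.56 for Nr3c1.

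The comparison of LPS with CCM against LPS alone asks what the ligand does in inflamed cells. In WT cells Klf9 was the only member called, 1.33-fold lower with CCM, beside 11.9% of 13579 genes called and 7.78% called lower. It stood at 12.4, 12.1 and 14 CPM with both agents against 19.8, 15.3 and 16.6 CPM with LPS, and the groups did not overlap, as was so for 30.1% of genes. The log2 fold change was -0.41 ± 0.11 (adjusted p = 0.043). The call rested on most libraries. It was lost when any 1 of 5 of the 6 libraries was left out, with changes of -0.30 without WT LPS replicate 1, -0.44 without WT LPS replicate 3, and -0.40, -0.37 and -0.48 without WT LPS+CCM replicates 1, 2 and 3 (adjusted p from 0.0536 to 0.154). With total counts in place of TMM, which turned the share of lower genes among those called from 65.2% to 32.3%, it was -0.33 (adjusted p = 0.0744).

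Nr3c1 stayed near its LPS level in WT. It stood at 210, 207 and 198 CPM with both agents, each below the lowest LPS library, but the change was only -0.09 ± 0.04 and was not called (adjusted p = 0.246, and -0.01 with total counts). Sgk1 stood at 571, 410 and 533 CPM with both agents, higher than LPS alone in 3 of 3 same-numbered pairs (0.19 ± 0.12, adjusted p = 0.359). The same-numbered WT libraries deviated together here, and with the replicate block Sgk1 was called (0.18 ± 0.04, adjusted p = 0.00274), beside 23.7% of genes. It was also called with no filter on low counts (adjusted p = 0.00373). Tsc22d3, at 3.55, 4.29 and 4.33 CPM (0.16 ± 0.17, adjusted p = 0.621), and Fkbp5, at 13.7, 14 and 15.3 CPM (-0.02 ± 0.11, adjusted p = 0.928), overlapped with LPS alone.

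In KO cells Klf9 was lower with CCM under LPS in 6 of 6 same-numbered pairs, but no member was called. Same-numbered libraries did not all deviate together in this comparison (lowest correlation -0.1), so its pair counts are descriptions. The share of all genes with such counts was not tested. The edgeR count was 0 of 5, beside 0.112% of 13386 genes, DESeq2 called 0, and of the members only Tsc22d3 had an unadjusted p under 0.05, as did 1070 of all genes. Klf9 ran from 1.01 over 9.86 to 13.5 CPM with both agents and from 1.86 over 18.7 to 20.8 CPM with LPS. The groups overlap with all replicates. They do not overlap without KO replicate 6, and the share of all genes for which that holds was not tested. The change was -1 ± 0.54 (adjusted p = 0.708), and -0.98 ± 0.22 without KO replicate 6 (adjusted p = 0.0505, beside 1.27% of genes called).

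The lowest of the other 5 Klf9 values came from 1 library. KO LPS+CCM replicate 5 had 4.52 CPM of Klf9 and 134 CPM of Nr3c1, and it was the library, next to KO replicate 6, with less RNA of long genes. With it and KO replicate 6 left out, a choice made after seeing the data, Klf9 was at -0.79 ± 0.12 and was called (adjusted p = 0.00859), beside 2.42% of genes. Nr3c1 was at -0.27 ± 0.24 with all libraries (adjusted p = 0.848) and at -0.15 ± 0.09 with those libraries left out (adjusted p = 0.406). The part of the loss of long genes in these values was not tested.

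Tsc22d3 was higher with CCM under LPS in 6 of 6 KO pairs, again a description, with 4.69 over 6.89 to 10.4 CPM against 3.7 over 4.63 to 5.63 CPM. The groups overlap, and the change of 0.55 ± 0.19 was not called (adjusted p = 0.398). KO LPS+CCM replicate 5 was its highest library, and without it and KO replicate 6 the change was 0.40 ± 0.17 (adjusted p = 0.26). Sgk1 was also higher in 6 of 6 pairs (0.20 ± 0.21, adjusted p = 0.861), and Fkbp5 was at -0.03 ± 0.17 (adjusted p = 0.96). Without KO replicate 6 alone Tsc22d3 was at 0.58 ± 0.21, Sgk1 at 0.22 ± 0.14, Nr3c1 at -0.26 ± 0.13 and Fkbp5 at -0.04 ± 0.13, and none was called.

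Whether the CCM change differed with LPS was tested by an interaction term. In the 12 WT libraries 0 of 5 members were called by edgeR or DESeq2, beside 2.09% of 14747 genes, while 2 lay under 0.05 unadjusted, as did 2060 of all genes. These were Klf9 (-0.45 ± 0.20, adjusted p = 0.309) and Nr3c1 (-0.19 ± 0.08, adjusted p = 0.303). Without WT vehicle replicate 3 Klf9 was called (-0.66, adjusted p = 0.0356). In the 24 KO libraries neither tool called any of the 5, beside 0.00685% of 14588 genes, and the unadjusted p was above 0.05 for each. Klf9 was at -0.96 ± 0.88 (adjusted p = 1), and at -0.80 ± 0.19 without KO replicate 6 and KO LPS+CCM replicate 5 (adjusted p = 0.0993).

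The genotype, KO against WT, was the last contrast. The RNA of the Bmal1 gene overlapped between the genotypes, at 2.02 to 10.8 CPM in KO and 7.52 to 12.9 CPM in WT libraries. How complete the loss of BMAL1 was in these cells was not tested, so results without a difference cannot be read as absence of a BMAL1 effect. Tsc22d3, chosen for this difference, had higher values in KO than in WT cells. The mean over the 4 treatments was 13, 13 and 11 CPM for WT replicates 1 to 3 and was 21.2, 15.7, 14.8, 15.6, 16.2 and 27.1 CPM for KO replicates 1 to 6. The ranges did not overlap, but since Tsc22d3 was selected on this contrast nothing is read from that. The share of all genes for which these means do not overlap was not tested. KO replicates 6 and 1 were the highest and KO replicate 3 the lowest of the KO replicates. The KO minus WT difference of the mean log2 CPM was 0.54, and 0.45 without KO replicate 6.

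By treatment, the Tsc22d3 difference was 0.54 ± 0.26 in vehicle, 0.70 ± 0.26 with CCM, 0.39 ± 0.18 with LPS and 0.78 ± 0.25 with both. The genotypes did not overlap with CCM or with both agents, and they overlapped in vehicle and with LPS. Over all genes, 0.618% with CCM and 1.08% with both agents had KO higher without overlap, and since Tsc22d3 was selected on this contrast nothing is read from its place among them. The 4 differences without KO replicate 6 were 0.35, 0.50, 0.34 and 0.75. With KO LPS+CCM replicate 5 left out as well, the last was 0.57. The neutrophil marker sums of KO replicate 6 lay above those of all other libraries, as given above, while its B cell sums overlapped with theirs. The neutrophil markers differed. S100a9 was the only neutrophil marker wholly above the other libraries, at 445 to 479 CPM in KO replicate 6 against 135 to 395 elsewhere. Ly6g, S100a8, Mpo, Elane and Camp overlapped with them, and Ngp, at 160 to 183 CPM, lay within the 97.0 to 275 of the others. The part of these cell types in its Tsc22d3 level was not tested.

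No other member had a called difference. In each treatment edgeR and DESeq2 called 0 of these 4, and none reached an unadjusted p of 0.05, beside 0% of genes in each of the 4 contrasts, in which edgeR left 118, 126, 105 and 187 genes at an unadjusted p under 0.05 (vehicle, CCM, LPS and both). Over the means of the 4 treatments, Nr3c1 was at a KO minus WT log2 difference of -0.27, Fkbp5 at -0.01, Klf9 at -0.72 and Sgk1 at -0.16 (two-sided exact permutation test over 84 orders of the replicates, p = 0.56, 0.917, 0.44 and 0.726, adjusted p = 0.917 for each of the 4). Without KO replicate 6 these differences were -0.01, -0.08, -0.09 and 0.03.

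KO replicate 6 lay far below the other KO replicates for 3 of the genes. It had 2.63 to 10.4% of the mean Klf9 level of the other 5 KO replicates, 20.0 to 46.3% of Nr3c1 and 31.8 to 54.9% of Sgk1, and was the lowest of the 6 in each of the 4 treatments for these 3 genes. In the same libraries Tsc22d3 stood at 112 to 173% and Fkbp5 at 102 to 164% of the other 5. In this replicate Nr3c1 was at 28 CPM in vehicle and 97.7 CPM with LPS, and Tsc22d3 at 45.2 and 5.34 CPM. Klf9 had 1.86 CPM both without and with LPS in it.

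**Figure D3:**
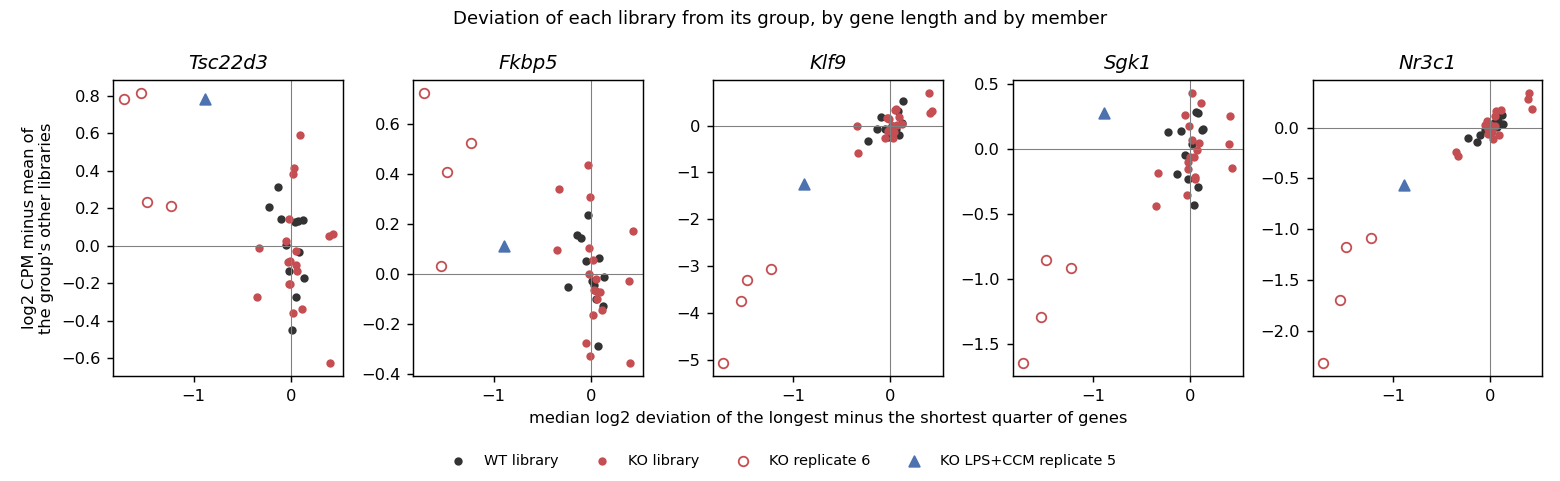
Deviation of each library from its group for the 5 genes. The horizontal axis gives the median log2 deviation of the top minus that of the bottom length quartile of 11179 genes, the vertical axis the log2 CPM of the member minus the mean of the other libraries of its group (KO replicate 6 left out of the means), and each point is 1 of 36 libraries. KO replicate 6 lies at -1.23 to -1.72 on the horizontal axis with Klf9 3.06 to 5.06 lower than its group, and KO LPS+CCM replicate 5 lies between it and the rest for Klf9 and Nr3c1.

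In the deposited table Fkbp5 has a length of 9468, Nr3c1 7425, Sgk1 4903, Tsc22d3 4341 and Klf9 3263 bases. The part of gene length in the values of KO replicate 6 was not tested.

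Across the libraries, the deviations of Klf9 and Nr3c1 from their group means moved together, with Pearson's r = 0.98 over 36 libraries and 0.78 over the 32 without KO replicate 6. Tsc22d3 and Nr3c1 moved apart (r = -0.70 and -0.54). Sgk1 and Nr3c1 had r = 0.90 over 36 libraries and 0.09 over 32. These are descriptions, and the points share cultures, depth and scaling.

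By the level over all 36 libraries, the 3 genes most like each member among 11179 genes with a mean log2 CPM of at least 1 were as follows. For Nr3c1 they were Pik3cg, Klf3 and Usp25 (Pearson's r of 0.99 for each). For Tsc22d3 they were Cd300a, Paox and Cdk20 (0.97 for each), for Klf9 Slc8a1, Sptbn1 and Tm6sf1 (0.98, 0.97 and 0.97), for Sgk1 Gpcpd1, Cat and Nck2 (0.95, 0.93 and 0.93), and for Fkbp5 Icam2, Got2 and Ryr1 (0.80, 0.79 and 0.78). By the deviations from the 8 group means they were Crybg3, Secisbp2l and Mob3a for Nr3c1 (0.99 for each), Rbl2, Tlr8 and Atp7a for Klf9 (0.99 for each) and Zfand5, Selenop and Rbm39 for Sgk1 (0.96 for each). For Tsc22d3 these were Mrpl9, Fabp7 and Tmem101 (0.79, 0.79 and 0.78) and for Fkbp5 Nqo2, Tubb6 and Tyms (0.81, 0.79 and 0.78). Without KO replicate 6, a choice made after seeing the data, Zfand5, Selenop and Rbm39 were again the 3 nearest Sgk1 (0.88, 0.87 and 0.82), while those of Nr3c1 were Wdfy3, 2610507B11Rik and Herc2 (0.97, 0.96 and 0.96) and those of Klf9 Abca2, Rad54l2 and Igf2r (0.89 for each).

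Around the 5 members, other genes of the pathway were read from 6 lists of 61 genes. These lists were also chosen with earlier results of these data known, so their counts are descriptions. Over all genes LPS gave 30.6% higher and 32.4% lower calls in WT, 22.4% and 24.7% in KO, and 69.4% in either direction in KO without replicate 6. LPS in WT did not move the 20 tested genes of the list of other glucocorticoid-induced genes in 1 direction, since 7 were higher, 7 lower and 6 not called, with a median log2 change of 0.13 beside -0.05 for all genes. The largest were Irak3, an inhibitor of Toll-like receptor signaling (3.83 ± 0.07), Tnfaip3, which encodes the NF-kB inhibitor A20 (3.79 ± 0.09), Nfkbia, which encodes the inhibitor IkB alpha (3.54 ± 0.07), and Rgs2, a regulator of G protein signaling (-3.08 ± 0.08). The first 3 are also known as direct targets of NF-kB. In KO 5 were higher, 6 lower and 8 not called of 19 (7, 9 and 3 without KO replicate 6), and the same 4 genes led, with values of 3.80, 3.68, 3.46 and -3.06.

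Of the 11 receptor chaperones tested in WT, 8 were higher with LPS, beside 30.6% of all genes, and 1 was lower, beside 32.4%. Their median log2 change was 0.67, beside -0.05 for all genes. They were led by Hspa1a, the inducible HSP70, from 1.97 ± 0.491 to 9.47 ± 0.275 CPM (2.29 ± 0.20), Dnaja1, an HSP40 (1.37 ± 0.06), Stip1, which links HSP70 to HSP90 (1.33 ± 0.05), and Hspa8, the constitutive HSP70 (0.98 ± 0.06). The 1 lower, named after its values were seen, was Fkbp4 (-0.58 ± 0.07), which encodes FKBP52, the immunophilin that favors receptor activity. In KO 7 were higher, beside 22.4% of all genes, with Hspa1a at 2.49 ± 0.19. The 1 lower in KO, also named after its values were seen, was Ppid, another immunophilin gene (-0.22), while Fkbp4 was not called there (-0.60, adjusted p = 0.0759). Without KO replicate 6 the KO counts were 8 higher and 2 lower, beside 69.4% of all genes called in either direction.

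Of the 10 coregulators in WT, 5 were higher and 3 lower with LPS, with Med1, a Mediator subunit, at 0.79 ± 0.09, Smarca4, a chromatin remodeler, at 0.57 ± 0.05 and Ncoa3, a coactivator, at -0.30 ± 0.06. In KO 2 were higher and 1 lower (3 and 3 without KO replicate 6). Of 4 tested genes of hormone metabolism and export, the drug exporters Abcb1b (-0.40 ± 0.06) and Abcb1a (0.38 ± 0.13) were called in WT. In KO none of the 4 was called with all replicates, and without KO replicate 6 there were 1 higher and 2 lower. Of 3 related steroid receptors, the mineralocorticoid receptor gene Nr3c2 was called, from 0.900 ± 0.208 to 0.256 ± 0.117 CPM (-1.73 ± 0.41), and in KO neither of the 2 tested was called with or without KO replicate 6.

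All 9 tested paralogs of the members were called in WT with LPS, 5 higher and 4 lower, beside 63% of all genes called. Klf10 was at -1.85 ± 0.16 and Klf2 at -0.78 ± 0.12, while the kinase gene Sgk3 was at 1.71 ± 0.05 and Klf6 at 0.96 ± 0.07. In KO 4 were higher and 1 lower of 9, beside 47.1% of all genes called, and without KO replicate 6 the counts were 5 and 4, beside 69.4%. Of the 61 genes, Mt2, Hif3a, Hsd11b2 and Sgk2 passed the filter in no comparison.

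In unstimulated cells edgeR called 0 of the 56 tested list genes with CCM, both in WT (10 at an unadjusted p under 0.05, 6 called by DESeq2) and in KO (3 and 1). Over all genes, 1404 of 14024 in WT and 333 of 13799 in KO had an unadjusted p under 0.05, and DESeq2 called 241 and 42. With KO replicate 6 left out, 1 of 19 glucocorticoid-induced genes was called higher in KO, beside 1.01% of all genes called. Under LPS in WT CCM lowered 5 of 19 other glucocorticoid-induced genes and raised 0, beside 7.78% of all genes called lower, with Ddit4 (-0.62 ± 0.16), Rgs2 (-0.60 ± 0.12), Anxa1, which encodes annexin A1 (-0.46 ± 0.05), and Tnfaip3 (-0.32 ± 0.05). The fifth, named after its values were seen, was Mertk (-0.21 ± 0.05). CCM raised 3 of 11 chaperones and lowered 0, beside 4.15% of all genes called higher. These were Hspa1a (0.49 ± 0.12), Fkbp4 (0.43 ± 0.07), and Hspa8 (0.19 ± 0.05). Of 9 paralogs 4 were lower, namely Klf4 (-0.65 ± 0.19), Tsc22d1 (-0.44 ± 0.07), Klf6 (-0.21 ± 0.04) and Sgk3 (-0.20 ± 0.05). Of the 4 genes of hormone metabolism and export, H6pd (0.50 ± 0.05), which encodes an enzyme that supplies the cofactor of the hormone-regenerating enzyme Hsd11b1, and Abcb1a (-0.55 ± 0.13) were called. In KO under LPS edgeR called 0 of 54 list genes, with or without KO replicate 6, while 4 had an unadjusted p under 0.05 and DESeq2 called 0. Over all genes 1070 of 13386 had an unadjusted p under 0.05, and DESeq2 called 200.

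The CCM change differed with LPS for 5 of 57 list genes in WT by the interaction term, beside 2.09% of all genes. It was 1.19 ± 0.27 on the log2 scale for Hspa1a, and negative for Abcb1a (-0.87 ± 0.17), Mertk (-0.65 ± 0.11), Rgs2 (-0.56 ± 0.13) and Sgk3 (-0.28 ± 0.07). In KO edgeR called 0 of 57, with 2 at an unadjusted p under 0.05 and 1 called by DESeq2. Over all 14588 genes these counts were 536 and 12. Between the genotypes edgeR and DESeq2 called 0 list genes in each treatment, and none had an unadjusted p under 0.05.

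**Figure D4:**
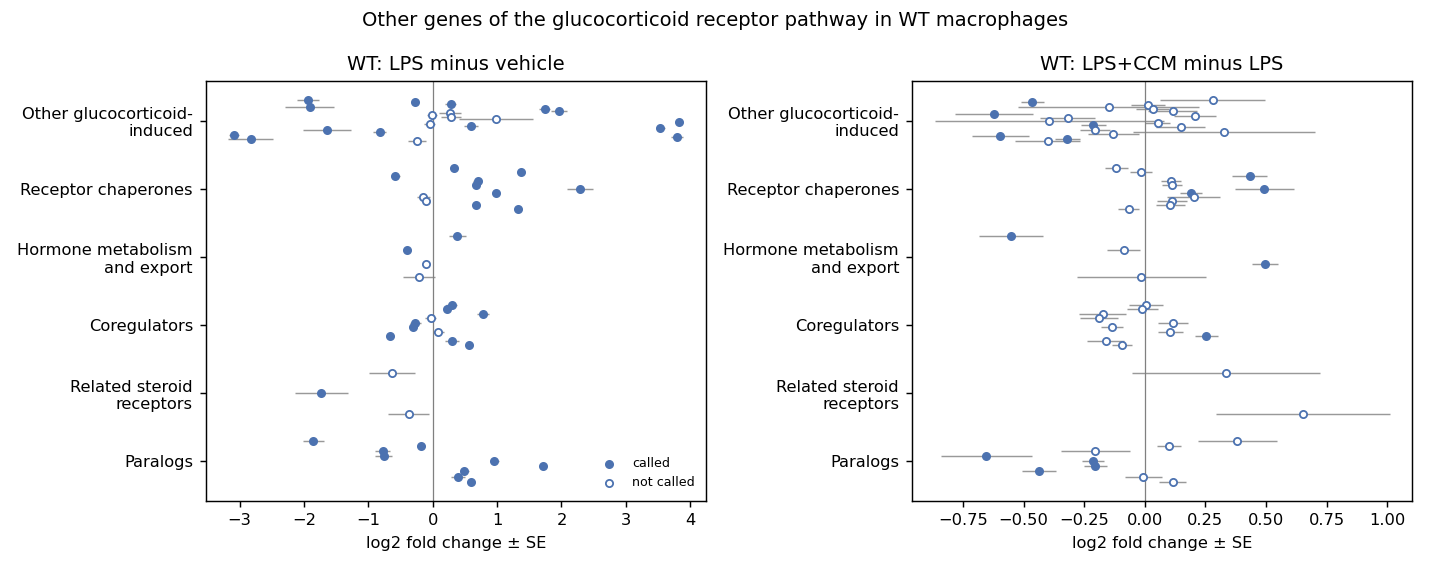
Other pathway genes in WT cells. The horizontal axes give the log2 fold change ± SE of each tested gene of the 6 lists for LPS against vehicle (left) and LPS+CCM against LPS (right), with filled circles for an adjusted p of at most 0.05. With LPS 8 of 11 chaperones are called higher and the glucocorticoid-induced list splits 7 and 7, and the scale of the CCM panel is narrower.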

How the data were processed

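RNA was measured by paired-end, polyA-selected sequencing of the 36 libraries. The authors trimmed reads with fastp, aligned them to mm10 with HISAT2 (2.0.5) and made counts of read pairs on each gene with featureCounts (1.5.0-p3). The deposited table holds these raw counts, with 0 count columns not used here, and the strand setting is not given in the sources used here. Gene positions and lengths are those of the deposited table, and 98.3% of its IDs found in GENCODE vM21 had identical positions there, among them 3 of the 5 members.

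Genes were kept with filterByExpr, scaled with TMM and tested with the quasi-likelihood test of edgeR (4.0.16, in R 4.3.3), each comparison on its own groups, with Benjamini-Hochberg adjustment over all genes tested and a threshold of 0.05. Values ± an error on fold changes are SE, others SD. CPM are TMM-scaled, and log2 CPM used a prior count of 2. The genotype values over all treatments were tested by an exact permutation of replicates. Read pairs on genes were 13469262 to 28288923 per library, and the lowest chi-square per degree of freedom between libraries of 1 group was 4.08, so no library was counted as a repeat of another. Intervals of counting error were not used, since the spread between libraries exceeds it.

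The members and the lists of other glucocorticoid-induced genes, receptor chaperones, hormone metabolism and export, coregulators, related steroid receptors and paralogs, and the marker lists of 8 cell types, were chosen with earlier results of these data known. Named from each list were up to 4 called genes with the largest absolute log2 change (some are not reported here), and for each member the 3 most correlated genes. The sums of the other marker lists in KO replicate 6 and in the other 32 libraries were 11.9 to 21.1 and 8.51 to 33.5 CPM for T cells, 4.78 to 11.1 and 1.15 to 7.23 for erythroid cells, 315 to 603 and 302 to 1660 for fibroblasts, 12.2 to 20.7 and 6.93 to 20.6 for mast cells and basophils, and 1.53 to 6.40 and 1.06 to 4.92 for dendritic cells.

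Alternatives were DESeq2 (1.42.0), RLE size factors, total counts alone, no filter on low counts, the replicate number as a block, each library left out and KO replicate 6 left out. The block without KO replicate 6, the omission of KO LPS+CCM replicate 5, and correlations over 32 libraries were added after seeing the data. Labels give the replicate numbers but not what they mark. Same-numbered libraries deviated together (every pair with r over 0.1) for LPS in KO (0.298 to 0.83), CCM in KO (0.337 to 0.844) and CCM under LPS in WT (0.151 to 0.36), and for these comparisons the blocked value stands beside a result whose call it changes. Libraries of different numbers had median correlations of 0.172, 0.221 and -0.132 there, so the 0.1 limit lies below that level in KO and does not show by itself that numbers mark pairs. Promoter windows come from RefSeq (GRCm38.p6). The tests were tried on simulated counts first.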

Additional observations from a re-analysis of the deposited data

Results flagged for a closer look

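In 7 of the 20 sets of 6 KO libraries examined (5 genes, 4 treatments), 1 library stood apart, in that its gap to the nearest other library took up an unusually large part of the whole range. For independent, normally distributed values chance gives this in about 1 of 20 sets. Sets of the same treatment share their libraries across genes, so the count found is not set against that rate. Fkbp5 in KO vehicle replicate 4 was the only one above its group, at 20.3 CPM with the nearest library at 17.2 (gap 0.651 of the range).

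The other 6 were KO replicate 6, below its group. Klf9 was at 0.696 CPM with CCM, against 22.9 in the nearest library (0.711 of the range), and at 1.86 CPM with LPS, against 16.5 (0.77). Sgk1 was at 215 CPM with CCM, against 591 (0.67). Nr3c1 was at 28 CPM in vehicle, against 77.9 (0.69), at 18.9 CPM with CCM, against 88.8 (0.855), and at 97.7 CPM with LPS, against 216 (0.9).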

How the results depend on the processing

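No called change of a member turned its direction under any alternative. With 1 library left out, 710 member values kept their side of the threshold, 8 lost it and 2 gained it. Under the other alternatives 358 kept it, 2 lost it and 20 gained it. The counts of kept values include the Tsc22d3 genotype values, which had no test and so no threshold to cross.

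Counts of called genes moved more. For CCM in WT edgeR called 8 genes, DESeq2 241 and the fit with no filter 377. For CCM in KO these were 0 and, with DESeq2, 42, and 141 without KO replicate 6. For CCM under LPS in KO edgeR called 15 genes, DESeq2 200, 170 were called without KO replicate 6, and 330 with KO LPS+CCM replicate 5 left out too. Between the genotypes edgeR called 0, and DESeq2 1 in vehicle, 1 with CCM, 2 with LPS and 1 with both. For the LPS by CCM interaction in WT the counts were 308 with edgeR, 688 with DESeq2 and 721 with no filter. In KO they were 1 with edgeR, 12 with DESeq2, 0 with total counts, 0 with no filter, 10 without KO replicate 6 and 13 with KO LPS+CCM replicate 5 left out too. The cause was not tested, except that fits without a library hold fewer samples.

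With single libraries left out the counts ran from 0 to 16 for CCM in WT (16 without WT vehicle replicate 3), stayed at 0 for CCM in KO, and ran from 893 to 1352 for CCM under LPS in WT (893 without WT LPS+CCM replicate 2), from 3 to 37 for CCM under LPS in KO (3 without KO LPS+CCM replicate 2, 37 without KO LPS replicate 6), from 0 to 1 for KO against WT with LPS, from 149 to 295 for the interaction in WT and from 0 to 2 for that in KO.

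With the replicate block 9774 genes were called for LPS in KO (10023 without KO replicate 6), 429 for CCM in KO (729) and 3220 for CCM under LPS in WT. The block changed no other call of a member in these 3 comparisons than those given above. In comparisons that did not meet the limit of r over 0.1 for every pair, the block gave 255 genes for CCM in WT, with Sgk1 called (0.38, adjusted p = 0.0101). It gave 777 for CCM under LPS in KO (304 without KO replicate 6), with Klf9 called (-1.05, adjusted p = 0.0189, and 0.055 without KO replicate 6). It gave 548 for the interaction in WT and 81 for that in KO (53 without KO replicate 6). In these comparisons the lowest correlation of same-numbered libraries was 0.0469 for LPS in WT, 0.0511 for CCM in WT and -0.1 for CCM under LPS in KO.

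Depth limits Tsc22d3 under LPS (58 counts in the lowest library) and Klf9 in KO replicate 6 (10 counts). With 3 WT replicates, the omission of 1 library decides calls near the threshold.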
